A study of Mus musculus with 18 samples.

Results

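Open chromatin was compared by ATAC-seq over every peak of the deposited peak set, in cells labelled as small cell lung cancer (SCLC). They came from mice with and without a conditional knockout of Carm1. The comparison took 6 of the 18 libraries of the series, 3 from TKO;Carm1KO mice (CARM1 knockout) and 3 from TKO mice (control), out of 9 ATAC-seq libraries in all. Both genotypes were labelled as carrying conditional alleles of Rb1, Rbl1 and p53, written Rb1L/L; Rbl1L/L; p53L/L, and the knockout carried Carm1L/L in addition. The methods of the study name Rbl1 in one place and Rbl2 in others, so which retinoblastoma family gene was deleted is not settled here. Mice were 8 weeks old when adenovirus with Cre was put into the trachea, and tumors were taken after 28 weeks of aging, from separate animals on a mixed background. The Cre vector recombined whichever lung cells it reached, and a tdTomato reporter marked them. The methods describe sorting on tdTomato, while other passages speak of tumor biopsies and of cancer cell lines, so the purity of the cells is not known. A peak is called opened where it had more reads in the knockout and closed where it had fewer, provided that edgeR's quasi-likelihood test gave an adjusted p below 0.1 and the log2 fold change reached 0.5 in size. The file held 111664 peaks with a median length of 780 bp, of which 111116 had enough reads to be tested.

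ATAC-seq reads the places where a transposase can insert into DNA, which are the promoters, enhancers and other stretches that nucleosomes leave accessible. CARM1 is an arginine methyltransferase that works as a transcriptional coactivator, and one of its substrates in SCLC cells is NFIB, a nuclear factor I protein known for opening chromatin in this tumor. SCLC is a neuroendocrine carcinoma, in which bHLH factors such as NEUROD1 bind E-box sequences at neuronal and secretory genes. Cells of mesenchymal character instead use AP-1 factors and the YAP and TAZ coactivators, which bind DNA through TEAD proteins.

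The sequences below are 200 bp windows at the middle of called peaks, from the plus strand of GRCm38. The windows of Slit3, Fyb, Lrrc4c, Kcnk13, Kif16b and Pdzrn3 come from the largest rises and falls, to show what a strongly opened or closed element looks like. Those of Col5a1 and Col1a1 were chosen as opened peaks nearest to listed genes with the most matches to the AP-1 letters, to show the sequence difference described at the end. Each peak is named after the protein-coding gene with the nearest start site, which need not be the gene around it. The Kif16b window lies in an intron of Macrod2, those of Fyb, Lrrc4c and Kcnk13 lie in introns of these genes, and the rest lie between genes. Capitals mark matches on either strand to AP-1 (TGANTCA), TEAD (GGAATG) or the single NFI site (TTGGCA).
Slit3 opened (chr11:35066004-35066203): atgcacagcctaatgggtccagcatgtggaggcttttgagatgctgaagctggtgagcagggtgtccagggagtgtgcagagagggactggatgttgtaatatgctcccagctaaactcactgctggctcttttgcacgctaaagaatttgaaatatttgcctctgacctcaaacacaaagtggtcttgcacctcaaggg
Fyb opened (chr15:6564992-6565191): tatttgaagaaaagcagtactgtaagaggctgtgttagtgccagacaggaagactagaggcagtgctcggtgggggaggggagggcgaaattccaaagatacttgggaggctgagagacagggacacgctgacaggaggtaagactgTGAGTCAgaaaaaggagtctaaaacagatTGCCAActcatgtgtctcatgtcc
Lrrc4c opened (chr2:97434247-97434446): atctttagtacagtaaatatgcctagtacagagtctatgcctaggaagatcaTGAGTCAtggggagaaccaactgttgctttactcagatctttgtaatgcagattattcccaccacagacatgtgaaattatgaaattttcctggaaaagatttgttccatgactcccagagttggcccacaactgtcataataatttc
Col5a1 opened (chr2:27858558-27858757): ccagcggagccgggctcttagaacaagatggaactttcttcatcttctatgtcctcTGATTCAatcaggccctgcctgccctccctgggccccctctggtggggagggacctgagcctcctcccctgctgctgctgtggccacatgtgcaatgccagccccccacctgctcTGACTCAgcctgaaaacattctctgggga
Col1a1 opened (chr11:94870035-94870234): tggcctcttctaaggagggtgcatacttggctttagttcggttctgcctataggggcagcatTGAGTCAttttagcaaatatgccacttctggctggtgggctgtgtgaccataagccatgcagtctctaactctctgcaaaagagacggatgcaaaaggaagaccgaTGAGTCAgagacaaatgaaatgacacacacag
Kcnk13 closed (chr12:100003074-100003273): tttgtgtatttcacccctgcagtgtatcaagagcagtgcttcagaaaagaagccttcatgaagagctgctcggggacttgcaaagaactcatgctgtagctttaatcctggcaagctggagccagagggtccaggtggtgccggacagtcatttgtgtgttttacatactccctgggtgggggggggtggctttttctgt
Kif16b closed (chr2:142335167-142335366): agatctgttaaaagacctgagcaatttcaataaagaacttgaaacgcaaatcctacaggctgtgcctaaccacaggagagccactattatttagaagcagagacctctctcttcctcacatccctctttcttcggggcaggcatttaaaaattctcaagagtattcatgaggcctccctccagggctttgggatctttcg
Pdzrn3 closed (chr6:101883098-101883297): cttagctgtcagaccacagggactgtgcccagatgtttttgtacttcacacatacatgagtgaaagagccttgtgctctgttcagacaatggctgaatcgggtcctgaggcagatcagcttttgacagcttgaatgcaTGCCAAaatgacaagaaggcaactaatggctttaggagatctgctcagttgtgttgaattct

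These windows differed in the matches they held. Fyb and Lrrc4c, whose peaks were nearly without reads in TKO, each held 1 AP-1 match, and the Fyb window also held a single NFI site. The Col5a1 and Col1a1 windows held 2 AP-1 matches each, which is what they were chosen for. Of 29 listed genes with an opened peak that could have been shown, 10 had a window with a match and 3 one with 2 or more. In 200 bp windows of all opened peaks away from promoters, 32.1% held a match. A window near Tead1, with 2 matches in a weakly opened peak (0.50, adjusted p = 0.0686), is not shown. The opened Slit3 window and the closed Kcnk13 and Kif16b windows held no match to any of these motifs, and the closed Pdzrn3 window held a single NFI site alone.

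The libraries held 26917178 to 47653979 reads on peaks, so 3 reads in a library stood for 0.0574 to 0.127 CPM (reads brought to a common total of reads on peaks, with TMM factors) in these 6 libraries. In all, 42971 peaks were opened, 38.7% of those tested, and 36014 were closed, 32.4%. The opened peaks had a median log2 fold change of 2.60 and the closed peaks one of -2.79, and in 40052 opened and 31511 closed peaks every knockout library lay beyond every TKO library. Of all tested peaks, whether called or not, 38.2% were higher and 31.5% lower in the knockout without overlap. A log2 fold change of at least 3 was reached by 15700 opened peaks, and one of at most -3 by 15952 closed peaks. Opened peaks held between 3.41 and 5.43% of the reads on peaks in the TKO libraries and between 27.2 and 29.5% in the knockout libraries. Closed peaks held 67.0 to 75.3% in TKO and 35.7 to 41.9% in the knockout. The share of opened among all called peaks was 54.4%, and it was 65.9% with library totals as the scaling and 63.2% when libraries were scaled on start-site peaks of genes of stable expression, which moved the median of all peaks up by 0.57 and 0.43 on the log2 scale. DESeq2 size factors moved it by -0.18 and an offset for GC content by 0.13.

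TKO replicates 1 and 2 stood apart at one locus. The 112 tested peaks within 1 Mb of Mycn, all closed in the knockout, took 9.26 and 9.07% of the counts of these libraries, but 0.15% in TKO replicate 3 and 0.0738 to 0.113% in the knockout libraries. Without both of these TKO libraries, an alternative added after the values had been seen, 30422 peaks were opened and 26108 closed. Knockout replicate 3 had the highest level of the 3 knockout libraries in 16810 of the closed peaks, 46.7%, and knockout replicate 1 in 20568 of the opened peaks, 47.9%. TKO replicate 3 was the highest TKO library in 20704 of the opened peaks, 48.2%. In bulk samples such as these, a different share of a cell type and a different openness per cell cannot be told apart.

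The targeted gene was looked at first. Reads on the Carm1 promoter peak (chromosome 9, 21545420-21548180) were 77.5, 79.4 and 93.9 CPM in the TKO libraries and 59.0, 72.0 and 78.1 in the knockout libraries. The groups overlapped and the difference was not called, with a log2 fold change of -0.26 ± 0.18 (SE) and an adjusted p of 0.212, while a correction for peak GC content turned it to 0.57 (adjusted p = 0.014). In RNA-seq of the same genotypes the Carm1 transcript stood at 97.7, 103 and 44.5 CPM in TKO and at 63.4, 79.1 and 50.8 in the knockout (log2 fold change -0.34, adjusted p = 0.41). Neither value checks the deletion, since which exons the allele loses was not given in the labels and whole-gene counts include the exons that remain.

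Opened and closed peaks lay in different parts of the genome. Among promoter peaks, whose middle lies within 1000 bp of a start site, 17.6% were opened and 35.7% closed. In introns 43.3% were opened and 32.1% closed, between genes 43.7 and 31.0%, and in exons 30.4 and 33.8%. Promoter peaks therefore made up 7.56% of the opened peaks and 18.3% of the closed ones, against 16.6% of all tested peaks. These shares belong to the main scaling, in which the median promoter peak had a log2 fold change of -0.34. Library totals and scaling on stable start-site peaks moved the median of all peaks up by 0.57 and 0.43. Both shifts are larger in size than the promoter median of -0.34, so the lean of promoters towards closing may not hold under those scalings. Promoter shares were not counted there. Beyond 100 kb from any start site, 42.2% of 4005 peaks were opened and 43.9% closed. Opened peaks also had fewer G and C bases, with a median of 46.0% in the middle 300 bp against 51.0% in closed peaks and 49.3% in all.

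**Figure D1:**
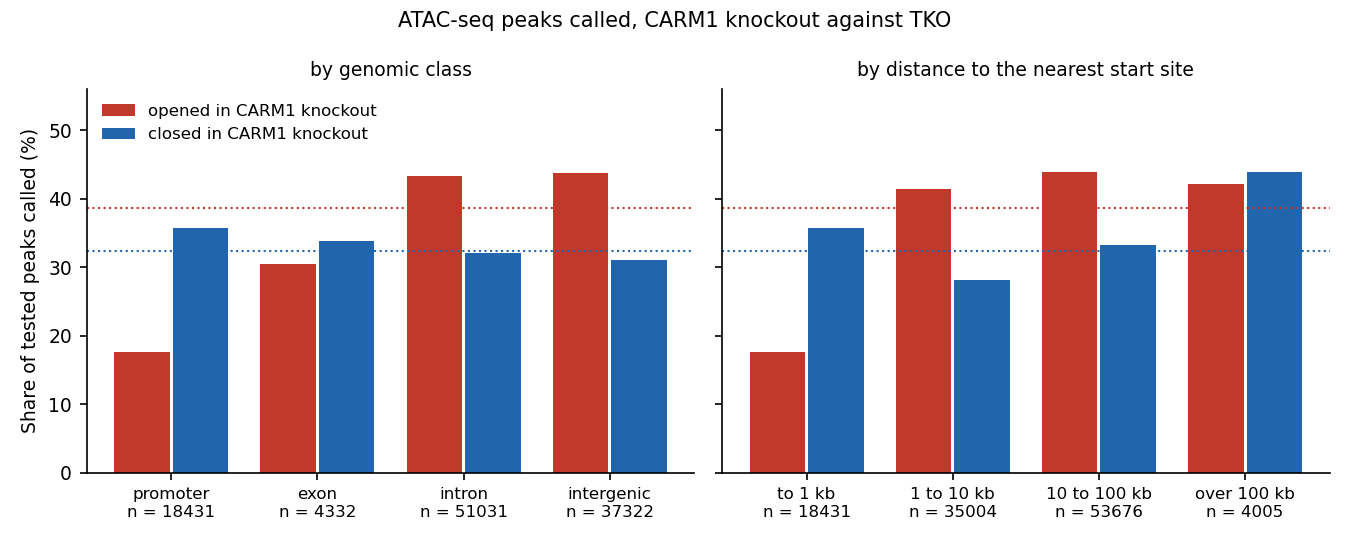
Share of tested ATAC-seq peaks opened (red) and closed (blue) in CARM1 knockout against TKO, in percent, by genomic class (left) and by distance to the nearest start site (right), with the number of peaks under each pair of bars and dotted lines at the shares over all peaks (38.7% opened, 32.4% closed). Promoters, the class to 1 kb, show 17.6% opened and 35.7% closed, while introns and intergenic stretches show over 43% opened.

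Chromosomes differed too. Chromosome 12, which carries Mycn, had the largest share of closed peaks among the autosomes, 50.3% of 4961, with a median log2 fold change of -0.84. On chromosome 19, 47.8% of 2882 peaks were opened and 19.6% closed, with a median of 0.93. Summed reads on chromosome 19 were 21800, 21800 and 12700 CPM in the TKO libraries and 18700, 22300 and 22100 CPM in the knockout libraries, so TKO replicate 3 held the lowest sum. DNA copy number was not measured here, and the number of copies and the openness of each copy cannot be told apart.

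Genes that define neuroendocrine SCLC cells lost open chromatin at their promoters. Of 18 such genes, 17 had a tested promoter peak, of which 15 were closed and 0 opened, with a median log2 fold change of -2.63. Of all promoter peaks 35.7% were closed, and their median was -0.34. The promoter of Scg3, a granin of secretory vesicles, went from 24.3, 25.6 and 22.3 CPM to 0.543, 0.691 and 3.85 (log2 fold change -3.83 ± 0.75, adjusted p = 0.00152). For Chgb, which encodes the granule protein chromogranin B, TKO libraries held 56.3, 64.7 and 40.1 CPM and knockout libraries 2.87, 3.25 and 11.7 (-3.18 ± 0.50, adjusted p = 0.000447). Syt1, the calcium sensor of vesicle release, stood at 88.7, 90.7 and 79.2 CPM against 5.35, 7.95 and 15.4 (-3.17 ± 0.35, adjusted p = 7.62e-05). In Scg3, Chgb and Syt1 knockout replicate 3 was the highest of its group, yet it stayed below the lowest TKO library. The others closed ranged from Ncam1 and Eno2 (-0.86 and -0.56) to Snap25, Chga, Nkx2-1 and Insm1 (-3.11, -3.0, -2.97 and -2.83), and Calca and Pcsk1 were not called (-0.55 and -0.92). Stmn2 had no promoter peak. The TKO libraries thus had open promoters at the defining genes of the labelled cell type, and in the knockout libraries most of these promoters were at low levels.

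The same list was read in RNA-seq. Of its 17 genes tested, 0 were higher and 4 lower in the knockout with an adjusted p below 0.1 and a log2 fold change of 0.8 or more in size, the limits by which 20.5% of all 15514 genes were higher and 18.3% lower. The 4 were Uchl1, Eno2, Snap25 and Tubb3. Chgb transcript stood at 102, 71.8 and 290 CPM against 0.136, 0.0583 and 67.8 (-2.77, adjusted p = 0.285). Knockout RNA library 3 stood just below the lowest TKO library, while the other knockout libraries were near 0.

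Transcription factors of neural fate closed as well. Of 22 factors, 19 had a tested promoter peak, with 18 closed, beside 35.7% of all promoter peaks, and 0 opened, and a median log2 fold change of -2.21. Neurod1, which defines another neuroendocrine subtype of SCLC, had 5.96, 18.8 and 5.54 CPM at its promoter in TKO and 0.491, 0.211 and 0.677 in the knockout (-4.46 ± 0.66, adjusted p = 0.000331), although 5 of its 8 nearest peaks were opened and 1 closed. Myt1l, a zinc finger factor of neurons, fell from 78.7, 86.5 and 41.1 CPM to 0.775, 0.653 and 8.32 (-4.41 ± 0.87, adjusted p = 0.00152). The loss ran through its neighbourhood, where 47 of 49 tested peaks nearest to Myt1l were closed and 1 opened. Sox1, a factor of neural progenitors, had 69.7, 59.5 and 83.9 CPM against 2.14, 2.42 and 14 (-3.52 ± 0.63, adjusted p = 0.00095), and all 10 of its nearest peaks were closed. The study itself showed Sox1 as an example of a target changed in these data. Myt1, a relative of Myt1l, had 16.2, 12.1 and 9.72 CPM against 0.207, 0.461 and 3.07 (-3.35 ± 0.81, adjusted p = 0.00459), and without knockout replicate 3 its log2 fold change was -5.21. The exception was Isl1, a LIM homeobox factor, whose promoter peak did not pass the test (0.07). Over both lists, peaks nearest to the neuroendocrine genes were closed in 63.7% of 157 cases and those nearest to neural factors in 76.9% of 216. Of all tested peaks 32.4% were closed and 38.7% opened. The counts of closed promoters under the alternatives ran from 12 to 17 for the neuroendocrine list and from 12 to 18 for the neural factors, the lowest with an offset for GC content.

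**Figure D2:**
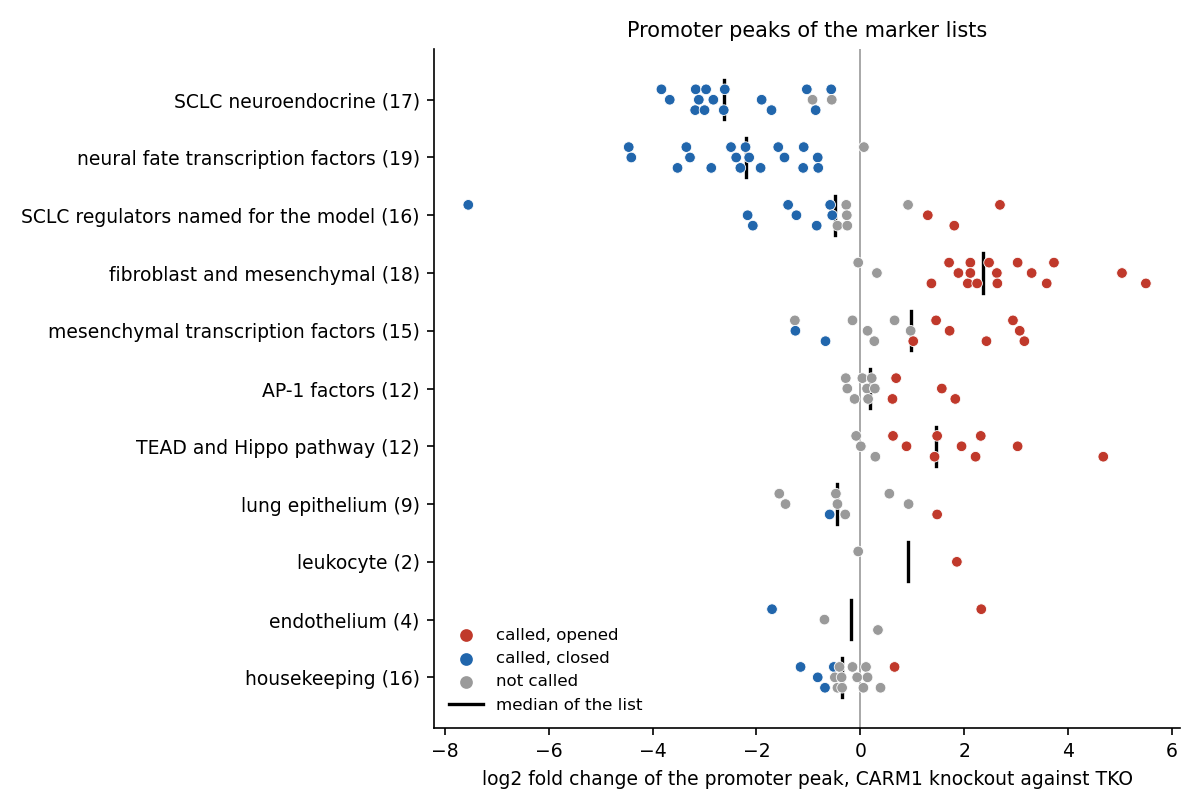
log2 fold change of the promoter peak, CARM1 knockout against TKO (x axis), for each gene with a tested promoter peak in 11 marker lists (rows, number of genes in brackets). Red dots are opened, blue dots closed and grey dots not called, and black bars are list medians. The neuroendocrine and neural lists lie left of 0, at medians of -2.63 and -2.21, and the fibroblast and TEAD lists right of it, at 2.37 and 1.46.

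Of 16 regulators named for this model, 8 promoter peaks were closed and 3 opened, beside 35.7% closed and 17.6% opened among all promoter peaks, so the opened share is near that background. An offset for GC content left 4 closed and 6 opened, and library totals left 4 closed and 4 opened. Lingo1, Ephb3, Mycl and a FOXA gene were shown in the study as examples of targets changed in these same data. Their closed promoters are therefore no independent evidence. Nfib had 69.5, 70.2 and 104 CPM at its promoter (chromosome 4, 82504112-82508674) in TKO and 35.7, 59.0 and 41.3 in the knockout, with no overlap (-0.84 ± 0.21, adjusted p = 0.0054). That fall was called by the main scaling but not with library totals (-0.29), an offset for GC content (-0.08) or scaling on stable start-site peaks (-0.43). Of 68 peaks nearest to Nfib, 31 were closed and 12 opened, beside 32.4% closed and 38.7% opened of all tested peaks. Lingo1, a transmembrane regulator of neurons, had 59.5, 59.7 and 55.1 CPM against 12.6, 13.8 and 15.2 (-2.07 ± 0.16, adjusted p = 1.37e-05), and 26 of its 33 nearest peaks were closed. Its transcript fell by 6.05 on the log2 scale (adjusted p = 0.0121).

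Foxa1, a pioneer factor of lung epithelium, had 117, 127 and 93.5 CPM at its promoter in TKO and 8.60, 38.2 and 27.9 in the knockout (-2.17 ± 0.43, adjusted p = 0.0015). Its knockout libraries spread widely but all lay below TKO. Of its 16 nearest peaks 6 were opened and 6 closed, near the 38.7 and 32.4% of all tested peaks. Ephb3, a receptor for ephrin-B ligands, had 69.6, 86.4 and 71.2 CPM against 37.7, 64.2 and 54.8 (-0.54 ± 0.19, adjusted p = 0.025), a difference that turned to 0.02 with an offset for GC content and to 0.06 with library totals. Mycl, a MYC family gene, had 140, 40.9 and 34.7 CPM in TKO and 24.1, 31.1 and 26.8 in the knockout (-1.39 ± 0.43, adjusted p = 0.0148). That difference rested on TKO replicate 1, without which the log2 fold change was -0.47 (adjusted p = 0.0581) and not called. Without TKO replicate 2 the Ephb3 value was -0.43, and without knockout replicate 1 it was -0.34, again not called. The transcripts of Foxa1, Ephb3 and Mycl were not called in RNA-seq (-1.24, 0.21 and -2.30).

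On the opened side, Yap1, the Hippo pathway coactivator that neuroendocrine SCLC cells usually lack, went from 4.65, 4.23 and 3.84 CPM to 25.7, 35.8 and 21.0 (2.69 ± 0.24, adjusted p = 2.5e-05). Rest, the repressor of neuronal genes, and Pou2f3, a factor of tuft cells, were opened by 1.30 and 1.81 on the log2 scale. Nfix and Nfic, relatives of Nfib, were closed by -1.23 and -0.58, and Nfia was not called (-0.25). By RNA-seq Nfic was higher in the knockout (1.22, adjusted p = 0.0369), Nfia lower (-1.21, adjusted p = 0.0524) and Nfix not called (-0.35). The Yap1 and Rest transcripts rose by 5.10 and 3.37 on the log2 scale, both called. The promoter of Myc itself was not called (0.92), yet 55 of the 71 peaks nearest to Myc were opened and 6 closed. Of all tested peaks 38.7% were opened and 32.4% closed.

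**Figure D3:**
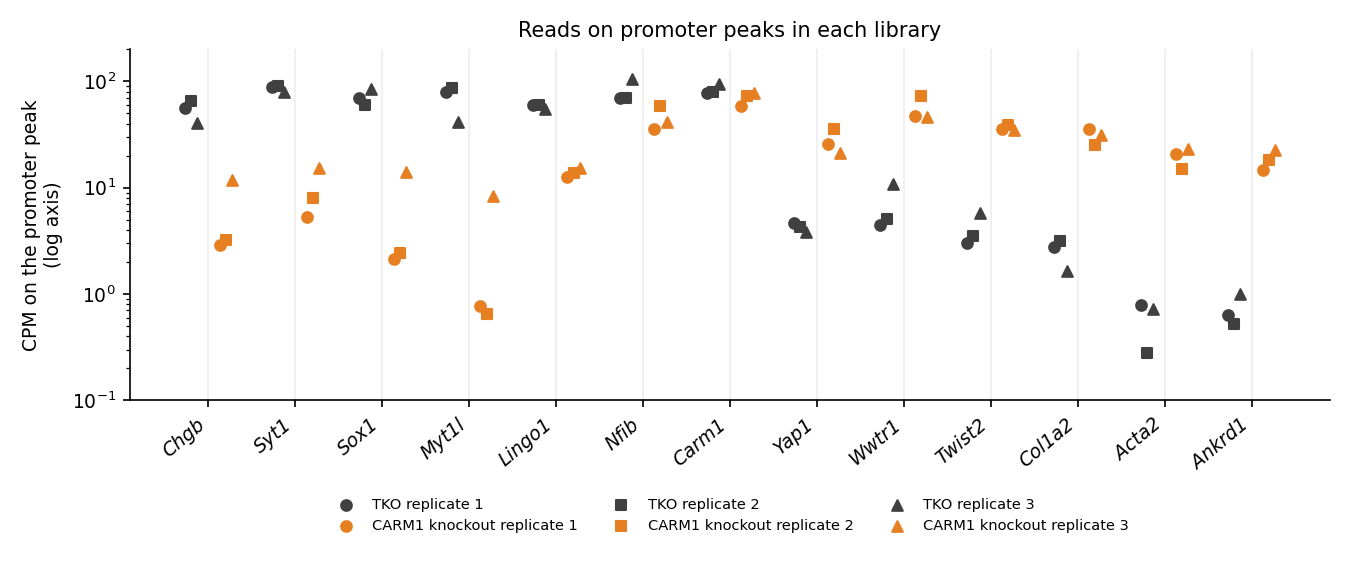
Reads on the promoter peaks of 13 genes (x axis) in each of the 6 libraries, in CPM on a log axis, with dark symbols for TKO, orange symbols for CARM1 knockout, and a symbol shape for each replicate number. The genotypes separate at all genes but Carm1, and knockout replicate 3 (orange triangles) is the highest knockout library at the neuroendocrine and neural genes Chgb, Syt1, Sox1 and Myt1l.

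Genes of the extracellular matrix and of mesenchymal cells gained open promoters. Of 18 genes on the fibroblast and mesenchymal list, all with a tested promoter peak, 16 were opened and 0 closed, with a median log2 fold change of 2.37, beside 17.6% of all promoter peaks opened. Col1a2, a chain of type I collagen, had 2.77, 3.18 and 1.65 CPM at its promoter (chromosome 6, 4504458-4507989) in TKO and 35.4, 25.3 and 31.3 in the knockout (3.59 ± 0.27, adjusted p = 1.27e-05). Of its 31 nearest peaks 28 were opened and 0 closed, beside 38.7 and 32.4% of all tested peaks. Col3a1, the type III collagen gene, went from 0.128, 0.0618 and 0.211 CPM to 6.30, 5.49 and 6.24 (5.50 ± 0.52, adjusted p = 3.38e-05), with 22 of 23 nearest peaks opened. Acta2, the smooth muscle actin of myofibroblasts, had 0.797, 0.278 and 0.718 CPM against 20.7, 15.1 and 23.2 (5.04 ± 0.47, adjusted p = 3.34e-05), and all 8 of its nearest peaks were opened. Postn, which encodes the matrix protein periostin, had 0.128, 0.0927 and 0.0423 CPM against 1.94, 0.749 and 1.02 (3.73 ± 0.68, adjusted p = 0.00104). The knockout libraries stood above every TKO library in all 4 genes. Thy1 and Pdgfra were the members not called (-0.04 and 0.32). All 18 transcripts were higher in the knockout by RNA-seq, Thy1 and Pdgfra included, beside 20.5% of all genes.

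Of 15 measured promoters of mesenchymal transcription factors, 7 were opened, beside 17.6% of all promoter peaks, and 2 closed, beside 35.7%. The closed ones were Zeb1 and Tbx2 (-0.67 and -1.25), and an offset for GC content left 10 opened and 0 closed. Without knockout replicate 2 there were 4 closed. Twist2, a bHLH factor of mesenchyme, went from 3.0, 3.49 and 5.79 CPM to 35.4, 39.1 and 35.2 (3.16 ± 0.29, adjusted p = 2.74e-05). Osr1, a zinc finger factor of fibroblast progenitors, had 1.24, 0.834 and 1.65 CPM against 12.3, 7.09 and 11.9 (3.07 ± 0.38, adjusted p = 0.000128). Tbx5, a T-box factor of lung mesenchyme, had 2.45, 1.76 and 1.82 CPM against 17.5, 10.1 and 18.7 (2.94 ± 0.33, adjusted p = 8.01e-05). Each of these was separate in every library, and so was Prrx1, a homeobox factor of mesenchyme, at 4.91, 6.58 and 2.87 CPM against 29.5, 24.6 and 23.7 (2.43 ± 0.32, adjusted p = 0.000168). Zeb2, whose promoter was not called, had 49 of 63 nearest peaks opened and 4 closed, beside 38.7 and 32.4% of all tested peaks.

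Promoters of the TEAD and Hippo pathway opened in 9 of 12 cases and closed in 0, with a median log2 fold change of 1.46. Of all promoter peaks 17.6% were opened and 35.7% closed, with a median of -0.34. Ankrd1, a target gene of YAP and TAZ, had 0.638, 0.525 and 1.01 CPM against 14.7, 18.2 and 22.5 (4.68 ± 0.46, adjusted p = 4.16e-05). All 12 of its nearest peaks were opened, beside 38.7% of all tested peaks. Wwtr1, which encodes TAZ, went from 4.49, 5.10 and 10.8 CPM to 47.0, 72.1 and 46.6 (3.03 ± 0.33, adjusted p = 6.81e-05). Ccn1, another target of the pathway, had 17.1, 20.8 and 20.5 CPM against 84.0, 114 and 94.1 (2.32 ± 0.20, adjusted p = 2.4e-05). Axl, a receptor tyrosine kinase gene on the list, had 4.65, 3.15 and 4.82 CPM against 17.7, 20 and 21.1 (2.22 ± 0.25, adjusted p = 8.83e-05). Tead1, Amotl2 and Vgll3 were not called (0.01, 0.29 and -0.08).

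The AP-1 genes themselves had 4 of 12 promoters opened and 0 closed, with a median log2 fold change of 0.18, beside 17.6% opened and 35.7% closed among all promoter peaks. The count of opened ones was 1 with DESeq2's Wald test, 2 without TKO replicate 2 and 11 with an offset for GC content. Fosl1, the FRA1 gene, had 11.4, 9.46 and 6.25 CPM against 28.9, 32.0 and 35.7 (1.83 ± 0.23, adjusted p = 0.00013). Fosl2, the FRA2 gene, had 77.9, 48.1 and 75.1 CPM against 93.9, 112 and 118 (0.69 ± 0.21, adjusted p = 0.015). Of its 31 nearest peaks 25 were opened, beside 38.7% of all tested peaks. Without TKO replicate 2 the Fosl2 log2 fold change was 0.50, which did not pass the fold threshold before rounding. Mafk, a small MAF partner, had 48.3, 40.1 and 47.9 CPM against 64.4, 74.0 and 70.7 (0.62 ± 0.14, adjusted p = 0.00286), and Batf was opened by 1.57. Fos, Jun, Junb, Jund, Fosb, Atf3, Maff and Batf3 lay between -0.28 and 0.28.

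Markers of other cell types were looked at beside these results, where 17.6% of all promoter peaks were opened and 35.7% closed. Of 12 leukocyte genes, 10 had no promoter peak in the set, among them Ptprc, Spi1 and Cd3e, and of the remaining pair Csf1r was opened and Cd68 not called. Their summed promoter reads were 51.3 to 59.0 CPM in TKO and 54.7 to 82.6 in the knockout. By RNA-seq, however, 9 of the 10 leukocyte genes tested were higher in the knockout, beside 20.5% of all genes. Of 4 endothelial promoters measured, 1 was opened (Pecam1, 2.33) and 1 closed (Tek, -1.70), with sums of 14.2 to 24.5 CPM in TKO and 18.8 to 21.2 in the knockout. Lung epithelial promoters had 1 opened and 1 closed of 9, Krt8 and Foxj1, with sums of 49.8 to 66.3 CPM in TKO and 35.7 to 58.8 in the knockout. Without knockout replicate 3, 4 of these were closed and 0 opened, without TKO replicate 3, 3 were closed, and without knockout replicate 1 or TKO replicate 1 none was. The part of such cells in the opened mesenchymal promoters was not tested. Among 16 housekeeping promoters 1 was opened and 4 closed, summing to 1030 to 1060 CPM in TKO and 948 to 1020 in the knockout, and the closed ones numbered between 0 with library totals and 9 with DESeq2 size factors.

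The largest rises of single peaks, with knockout levels of at least 8 CPM on average (3 on the log2 scale), were at loci outside the lists. Most of their TKO levels stood for a few reads, so the fitted fold changes are not exact. A peak in an intron of Fyb (chromosome 15, 6564624-6565561), an adaptor gene of T cells and myeloid cells, had 0.191, 0 and 0 CPM in TKO and 11.1, 11 and 9.26 in the knockout (7.21 ± 0.84, adjusted p = 9.89e-05), and its reads in TKO came from replicate 1 alone. The Slit3 peak (chromosome 11, 35065318-35066891), 55120 bp from the start of this guidance ligand gene, had 0.191, 0.247 and 0.296 CPM against 24.7, 26 and 21.5 (6.62 ± 0.29, adjusted p = 3.18e-06). Slit3 had the smallest SE of the 10 largest rises, and its transcript was higher in the knockout (adjusted p = 0.00247). In an intron of Nrap, a muscle anchoring protein gene, a peak went from 0, 0.124 and 0.211 CPM to 9.56, 13 and 14.7 (6.83 ± 0.79, adjusted p = 9.51e-05). Other peaks of this size lay nearest to Car8 (7.01), Sh3tc2 (6.72), Lrrc4c (6.57), Insig2 (6.57), Cstf2t (6.53) and Ms4a6c (6.46). Those named after Car8 and Insig2 lay between genes, 550228 and 315493 bp from the start, that of Cstf2t in an intron of Prkg1 and that of Ms4a6c in an exon of Ms4a4b. Their TKO libraries held at most 0.247 CPM, and their knockout libraries at least 6.24.

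At start sites the largest rise was at a noncoding RNA, A530046M15Rik, 204839 bp from the start of Inhba, which encodes a subunit of activin. This peak (chromosome 13, 15806481-15807544) had 0.159, 0.216 and 0.423 CPM in TKO and 22.0, 28.6 and 23.5 in the knockout (6.56 ± 0.42, adjusted p = 7.04e-06). Start-site peaks near Thbs1, the gene of the matrix protein thrombospondin 1, and near Ptgs2, the inducible cyclooxygenase, rose by 6.23 and 5.99 on the log2 scale. Both lay at unnamed or noncoding transcripts, 72474 and 65162 bp from the coding genes. Ifi204 and Ifi205, interferon-inducible DNA sensors, were opened at their own start sites. Ifi204 went from 2.26, 1.85 and 2.96 CPM to 120, 118 and 95.4 (5.56 ± 0.23, adjusted p = 2.7e-06) and Ifi205 by 5.61. These belong to a cluster of similar genes, where reads shared between copies leave the value of each uncertain.

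Among the largest falls, most drew on TKO replicates 1 and 2. The intergenic peak nearest to Mycn (chromosome 12, 12865716-12926928), called over more than 60 kb, had 12600 and 17700 CPM in these libraries, 112 in TKO replicate 3 and 20.3, 13 and 21.1 in the knockout (-9.13 ± 1.71, adjusted p = 0.0029). At the Mycn promoter peak (chromosome 12, 12928648-13033647) the values were 12000, 15700 and 121 CPM against 66.6, 43.1 and 38.8 (-7.55 ± 1.56, adjusted p = 0.00438). TKO replicate 3 was still above the knockout in both, and without the other TKO libraries the log2 fold changes were -2.66 and -1.32, in a fit where the lone TKO library is assumed to vary like the other groups. Peaks nearest to Fam49a and Nbas, neighbours of Mycn, fell by 8.54 and 7.57, and by 1.92 and 1.26 with TKO replicate 3 alone.

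TKO replicates 1 and 2 were also the highest at peaks far from Mycn. Of those below, the peaks named after Mdga2, Kcnk13 and Rgs6 lie on chromosome 12 as well. The median promoter peak of that chromosome stood at 1.38, 1.41 and 1.13 times the median of all promoter peaks in the TKO libraries. In the knockout libraries it stood at 0.89, 0.85 and 0.93 times. In an intron of Mdga2, a synapse organiser gene, the peak had 28.4, 37.9 and 1.35 CPM against 0.129, 0 and 0 (-9.06 ± 1.44, adjusted p = 0.000488). Peaks near Ccser1, Kcnk13 and Rgs6 had log2 fold changes of -7.73, -7.70 and -7.65, and of -4.44, -3.13 and -5.34 with TKO replicate 3 alone, all still called. The peak in an intron of Nlgn1, a neuronal adhesion gene, had 7.40, 14.5 and 2.83 CPM in TKO and was at or under 3 reads in every knockout library. Its knockout mean was thus at least 119-fold below the TKO mean, a bound that does not hold for TKO replicate 3 by itself. With TKO replicate 3 alone the log2 fold change was -5.89.

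Falls with every TKO library high were picked out by a rule added after the values were seen. They were led by a peak in an intron of Macrod2 (chromosome 2, 142334329-142336205), 566177 bp from the nearest start, that of the endosomal kinesin gene Kif16b, with 29.4, 38.5 and 15.3 CPM in TKO and 0.0775, 0.0768 and 0.242 in the knockout (-7.69 ± 0.60, adjusted p = 1.42e-05). The peak nearest to Pdzrn3, a ubiquitin ligase gene, lay 505301 bp from its start (chromosome 6, 101882699-101883698) and had 20.4, 31.7 and 16.9 CPM against 0.129, 0.096 and 0.169 (-7.43 ± 0.59, adjusted p = 1.53e-05). Both groups were narrow beside the difference between them. By RNA-seq, however, Pdzrn3 was higher in the knockout (3.72, adjusted p = 0.0269) and Kif16b was not called (-0.04). An exonic peak of Nova1, a neuronal splicing factor, fell by 7.08 and a peak 43211 bp from the synaptic vesicle gene Sv2c fell by 6.90. At start sites, Tub, the gene of the tubby protein of neurons, had 25.9, 24.8 and 8.07 CPM against 0.362, 0.115 and 0.290 (-6.27 ± 0.65, adjusted p = 5.61e-05). The falls at start sites were not held to the rule on TKO levels. The start-site peak of Lrrc49, at 12.4, 11.9 and 5.41 CPM in TKO, fell by 6.23. A peak at the noncoding RNA Gm40418, 528419 bp from Prkd1, fell by 6.20, from 18.7, 22.7 and 0.676 CPM in TKO. With TKO replicate 3 alone its log2 fold change was -1.84.

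Some genes opened or closed over nearly all their peaks. Inhba had 50 of 51 nearest peaks opened and 0 closed, with summed reads of 24, 47.5 and 28.1 CPM in TKO and 222, 252 and 222 in the knockout, and its transcript went from 2.35, 2.58 and 0.399 CPM to 47.7, 121 and 38.8. Thbs1 had 47 of 50 opened and 0 closed, summing to 26.2, 24.9 and 45.9 CPM against 314, 269 and 420. Klf6, an early response zinc finger gene, and Meis1, a homeobox gene, had 40 of 48 and 39 of 50 opened, and 3 closed each. Tns3, a focal adhesion gene, and Stard13, a RhoGAP gene, had 40 of 64 and 38 of 45 opened. Of all tested peaks 38.7% were opened. For 5 of the 8 genes with the most opened peaks (Inhba, Thbs1, Klf6, Meis1, Stard13) the transcript was higher in the knockout at an adjusted p between 0.00118 and 0.0314, and for Myc, Zeb2 and Tns3 it was between 0.0647 and 0.0758, also called. Of all genes tested in RNA-seq, 20.5% were higher.

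Other genes had nearly all their peaks closed. Fam49a and Rad51ap2 lie next to Mycn. Fam49a had 89 of 89 and Rad51ap2 74 of 74 peaks closed, with sums of 38300 and 6370 CPM in TKO replicate 1, 536 and 269 in TKO replicate 3, and 344 or less in the knockout. Cdh4, a cadherin gene of neurons, had 55 of 60 closed, at 462, 386 and 426 CPM against 42.3, 31.2 and 68.5. Nrxn3, a presynaptic adhesion gene, had 48 of 49 closed, at 273, 400 and 178 CPM against 16.6, 24.9 and 29.2, and its transcript was listed at 7.69, 9.45 and 23.6 CPM in TKO and at 0 in all 3 knockout libraries. In Cdh4 and Nrxn3 every TKO library stood above every knockout library. Rapgef5, Gse1 and Nav2 had 50 of 53, 45 of 59 and 44 of 65 peaks closed, beside 32.4% of all tested peaks. Of 3430 genes with at least 10 peaks, 325 had opened but no closed peaks and 228 closed but no opened ones, while 2876 had both.

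**Figure D4:**
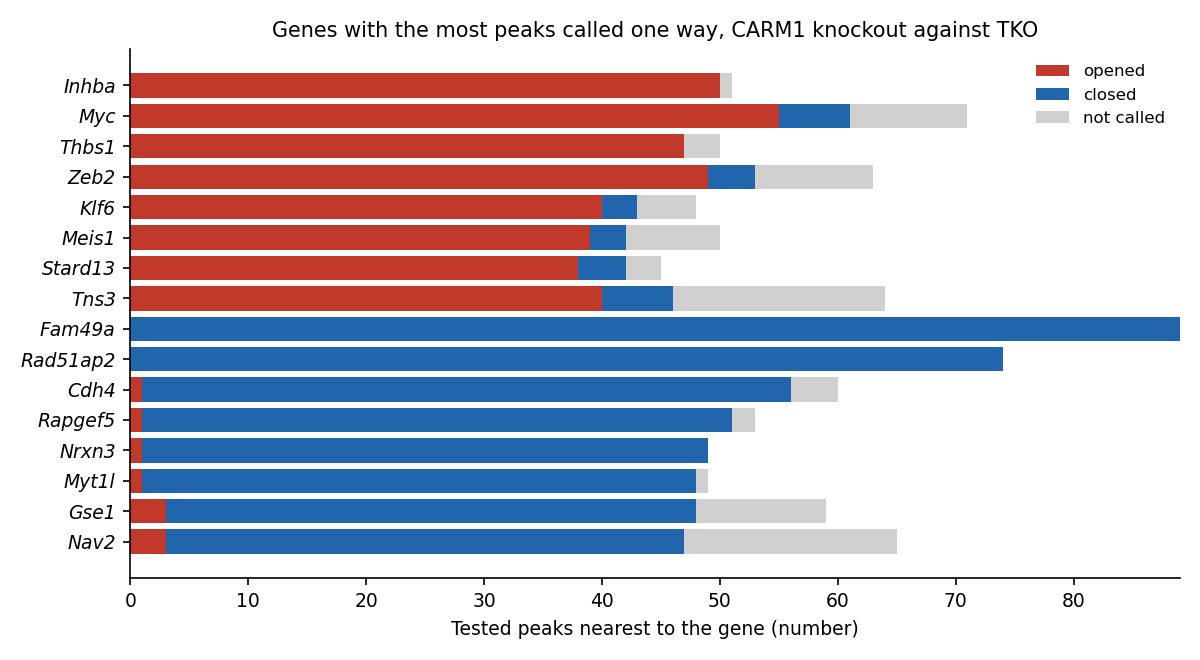
Number of tested peaks (x axis) nearest to the 8 protein-coding genes each way with the largest surplus of peaks called one way, split into opened (red), closed (blue) and not called (grey). Inhba and Thbs1 have no closed peak, and Fam49a and Rad51ap2, next to Mycn, have every peak closed.

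Consecutive peaks called one way formed long domains. The longest opened run held 63 peaks over 1930 kb of chromosome 13 (15762218-17690402) with Inhba and Sugct, where median reads per peak were 0.128, 0.155 and 0.169 CPM in TKO and 2.82, 3.25 and 2.30 in the knockout. Next came 42 peaks over the type I interferon genes of chromosome 4 (88759788-89039358), a cluster of near-identical copies in which counts per gene are uncertain. Then followed 39 peaks around the fibrillin gene Fbn1 on chromosome 2, 38 peaks with Pla2g4a and Ptgs2 on chromosome 1, and 35 peaks each with Dab2, C9 and Fyb on chromosome 15 and around the growth factor gene Hgf on chromosome 5. In the Pla2g4a and Ptgs2 run, which holds the phospholipase and the cyclooxygenase of prostaglandin synthesis, the summed reads were 13.8, 10.3 and 13 CPM against 306, 223 and 137. A chemokine cluster with Ccl2, Ccl7 and Ccl11 formed a run of 34 opened peaks on chromosome 11, and the Il1r1 and Il1r2 receptor genes one of 30 on chromosome 1.

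The longest closed run held 223 peaks over 2690 kb of chromosome 12 (11365036-14059638), from Vsnl1 to Fam84a with Mycn inside, at a median of 75.2, 44.4 and 2.54 CPM in TKO and 1.86, 1.06 and 1.26 in the knockout. A run of 55 peaks spanned Ppp1r16b to Dhx35 on chromosome 2 (158641586-159719031), at 7.91, 3.55 and 2.58 CPM against 0.310, 0.230 and 0.411. Nrxn3 lay in a run of 50 on chromosome 12, Cdh4 in one of 49 on chromosome 2, and the teneurin gene Tenm2 in one of 48 on chromosome 11. Another run of 50, over only 104 kb of chromosome 6 with Hrh1 and Atg7, had a median log2 fold change of -1.18 with an SD over peaks of 0.31, and medians of 99.6, 97.1 and 45.4 CPM in TKO and 37.7 to 39.7 in the knockout. In it TKO replicate 3 stood close to the knockout. Runs of 10 or more peaks held 12.5% of the opened peaks, in 366 runs, and 13.8% of the closed peaks, in 305 runs.

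Expression was compared with the promoter calls. Of 1557 genes with an opened promoter peak and a tested transcript, 75.9% were higher in RNA-seq and 2.25% lower. Of 5120 with a closed promoter, 32.4% were lower and 4.73% higher, against 17.1% lower and 20.9% higher among all 14221 genes with a promoter peak. Away from promoters, peaks nearest to a gene with higher RNA were opened in 58.6% and closed in 17.5% of 21173 cases. Those nearest to a gene with lower RNA were opened in 27.8% and closed in 49.5% of 11862, and those nearest to a gene not called in RNA in 40.3 and 33.2%. These shares are a description, since peaks of 1 gene are not independent of each other.

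Opened and closed peaks away from promoters held different shares of several motifs. Within the middle 300 bp, the AP-1 letters occurred in 42.3% of 39722 opened peaks, 9.10% of 29432 closed peaks and 26.9% of all 92685. Peaks with no AP-1 match were opened in 33.8% of cases, those with 1 match in 65.1% and those with 2 or more in 80.7%, and the closed shares went from 39.5 to 12.1 and 3.53%. The TEAD letters and the RUNX letters (TGTGGT) followed the same way, at 25.2% of opened and 14.8% of closed peaks for TEAD and at 31.0 and 20.1% for RUNX. In the opposite direction, the single NFI site was in 19.6% of opened and 29.8% of closed peaks. The full NFI palindrome, TTGGC and its reverse complement 5 bases apart, was rare, at 0.0302% of opened and 0.234% of closed peaks, and of the 101 peaks with it 68.3% were closed. Peaks with 2 or more single NFI sites were closed in 51.3% of cases and opened in 28.6%.

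Over peaks of every GC content, other motifs set the opened and closed peaks apart less or not at all. The SOX letters (ACAAAG) were in 24.4% of opened and 29.5% of closed peaks, the NEUROD1 E-box (CAGATG) in 27.4 and 28.3%, and the FOXA letters (TGTTTAC) in 5.14 and 5.53%. The CTCF motif was scarce in both, at 1.17 and 1.78%, and more frequent in peaks not called, at 7.46%. Since opened peaks had fewer G and C bases, the shares were also taken among peaks of 40 to 50% GC only. There AP-1 stood at 43.6% of opened and 10.4% of closed peaks, and TEAD at 25.6 and 14.4%. The single NFI site stood at 19.8 and 30.7% and SOX at 25.5 and 34.7%, so SOX differed more there than over all GC contents. At promoters AP-1 was in 24.5% of opened and 3.69% of closed peaks. A match is a description of these letters, and binding was not measured.

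**Figure D5:**
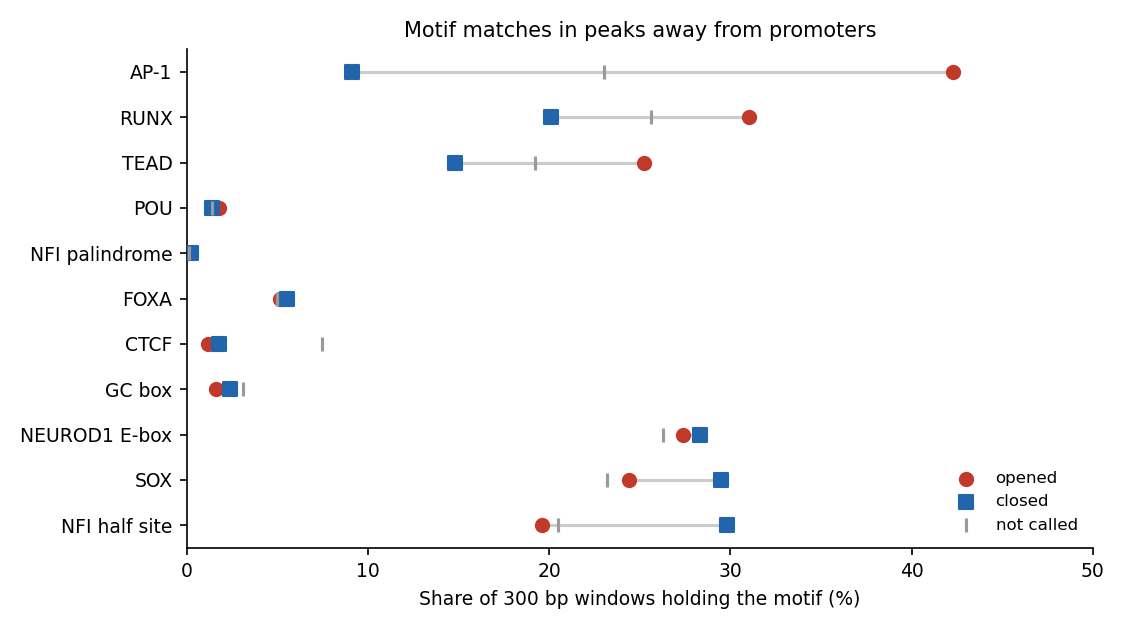
Share of 300 bp windows at the middle of peaks away from promoters that hold each of 11 motifs on either strand (x axis, percent), for opened (red circles), closed (blue squares) and not called peaks (grey ticks). AP-1 is farthest apart, at 42.3% of opened and 9.10% of closed peaks, and the single NFI site lies the other way.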

How the data were processed

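ATAC-seq and RNA-seq libraries of TKO, TKO;Carm1KO and NFIB mutant tumor cells were used, 3 of each genotype per assay, and the comparison was CARM1 knockout against TKO. Columns named C and KO were taken as TKO and CARM1 knockout, since the labels do not spell out these short names. The authors trimmed ATAC-seq reads, mapped them to mm10 (GRCm38) with Bowtie2, removed duplicates with Picard and, by their methods, left out putative copy number altered regions, although peaks around Mycn are in the file. They called peaks with MACS2 by the methods and with Genrich by the submitters' processing notes. Their methods estimate relative depth from start-site peaks of evenly expressed genes, while TMM was the main scaling here. The deposited values are unnormalized counts of reads on 1 merged peak set, from featureCounts 1.6.3 by the file header (bedtools multicov by the methods), without regard to strand, where pairs count as single reads and reads over several peaks are left out. The authors also deposited unnormalized gene counts, from hisat2 alignments and HTSeq, of which 5 summary entries were left out here.

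Peaks and genes were tested in R 4.3.3 with edgeR 4.0.16 (TMM, filterByExpr, robust quasi-likelihood test, Benjamini-Hochberg adjustment over all peaks or genes), in 1 model of all 9 libraries of an assay, which share 1 estimate of the spread. Replicates are tumors of separate animals per the labels. With 3 libraries against 3, the smallest p an exact two-sided permutation test allows is 0.10. Depth was 26917178 to 47653979 counts on peaks per library, and levels under 3 reads were taken as not detected, which covers counting error only. Same-numbered libraries of the genotypes did not deviate together (r = -0.0444, -0.0257 and -0.142), so the numbers were not taken as pairs, and no libraries held identical counts. Promoter and motif shares have no test. Peaks were annotated with GENCODE vM21 basic on GRCm38 in Python 3.11.15 (pandas 2.3.3, numpy 2.4.6, matplotlib 3.10.9).

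A gene's promoter peak is the one with the most reads among peaks overlapping 1000 bp around its start sites. Genes were named as up to 4 per marker list with the largest called promoter change and libraries that do not overlap, with the regulators of the model always named. Peaks were named as the 10 largest rises and falls with at least 3 log2 CPM in the higher genotype, the 6 at start sites, the 8 genes with the most peaks called one way, and the 5 longest runs. The sequences beside these, the falls with every TKO library high, and further members given by value alone were chosen after their values were seen. The members, lists and rules were all chosen with earlier results of these data known. Sequences shown come from peaks under 2000 bp in introns or between genes. Alternatives were other scalings, filters and thresholds, DESeq2 1.42.0, only the 6 libraries compared, a replicate block, a GC offset, other promoter and motif windows, and leaving out libraries. The fits were tested on simulated data, in which large changes were called more often than small ones and the smallest were missed. NFIB mutant libraries entered the fits and are not described here. Some genes and a motif are not reported here, although list counts and medians include every measured member.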

Additional observations from a re-analysis of the deposited data

How the results depend on the processing

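No alternative moved the number of opened or closed peaks by over 1.5 times except a filter of at least 10 counts in every library, which tested fewer peaks (65496) and left 20978 opened and 17853 closed. Leaving out 1 TKO or knockout library at a time gave 38944 to 44357 opened and 32531 to 35800 closed peaks. DESeq2's Wald test gave 41642 and 41160, and the stricter threshold (adjusted p under 0.05, absolute log2 fold change of at least 1) 38255 and 30149. Library totals gave 52571 and 27254. With the replicate number as a block 42140 peaks were opened and 34508 closed, so the block moved no count by over 1.5 times, and RNA-seq calls were 5485 with it against 6021 without. RNA-seq calls ran from 4669 to 6416 with 1 library left out and were 7285 by DESeq2.

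Promoter shares of opened and closed peaks moved with the definition, to 9.65 and 20.2% for any overlap with 1000 bp around a start site and to 14.8 and 24% for a middle within 2500 bp. In 200 bp windows AP-1 stood at 32.1% of opened and 6.30% of closed peaks, and with 40 to 50% GC only at 43.6 and 10.4%. Among the 83 named peaks followed under the alternatives, directions turned at 3, with an offset for GC content at Carm1 (0.57), Ephb3 (0.02) and Foxj1 (0.20), and with library totals at Ephb3 (0.06). The cause was not tested. Over all peaks, those called in opposite directions numbered 5 with that offset, 1 without TKO replicate 3, 22 without TKO replicates 1 and 2, and 0 under the other alternatives. With 3 libraries a genotype, and cells of unsettled source, small promoter changes depend on the scaling.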
